A study of Mus musculus with 4 samples.

Results

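Shared H1foo and AE4 peaks inside genes are places, far from either end of a protein-coding gene, where an H1foo peak and an AE4 peak overlapped in mouse embryonic stem cells. They were taken from the AE4 peak list on the 19 autosomes. A peak was kept if it shared at least 1 bp with an H1foo peak, if its centre lay inside the span of a protein-coding gene, and if that centre was more than 10 kb from every protein-coding gene boundary. In all, 7021 of the 47206 autosomal AE4 peaks met these conditions, out of 144823 autosomal peaks in both lists together. The peaks were thus chosen by measured values, namely the overlap of the peaks of both lists and their position, so counts of either are descriptions and carry no test. Over all autosomal AE4 peaks, 51.4% overlapped an H1foo peak.

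The 4 ChIP-seq libraries came from embryonic stem cells of strain 129S4/SvJae, none of them treated, that overexpressed mouse H1foo as a fusion with GFP. In one group of 2 libraries the antibody was an in-house rabbit polyclonal against H1foo, and in the other group of 2 it was AE4, a mouse monoclonal used for the somatic H1 variants. Both groups thus carried the same transgene, and cells without it were not analysed here. For 3 points, whether the cells were 1 clone, what drove the transgene and whether AE4 also binds the H1foo fusion, an answer was not given in the sources used here. Each antibody has 1 deposited peak list, with no value per library. Library depth is unknown, no spread between replicates could be given, and the stem cell label could not be checked, since peaks hold no expression. Binomial 95% intervals below are exact (Clopper-Pearson), treat peaks as independent and cover counting error only; neighbouring peaks cluster, so the true uncertainty is larger.

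Linker histone H1 binds the nucleosome where DNA enters and leaves it, and favours compact chromatin. Somatic cells carry several H1 variants, whereas H1foo is the variant of the oocyte and is exchanged for somatic variants in the early embryo. In many cell types H1 is depleted at the start sites of active genes and is spread through gene bodies and the sequence between genes.

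The sequences of the peaks themselves were not used here. Short stretches of reference sequence did lie under some of them. RefSeq (mm10 coordinates, the chromosomes of GRCm38.p6) places 3150 annotated start sites of any gene type more than 10 kb from every protein-coding gene boundary, that is, at alternative first exons or at genes nested in larger ones. Of these, 79 had a shared peak over some part of the window from 250 bases before to 50 bases after the start, and 34 of the 79 belonged to protein-coding genes. The 5 protein-coding start sites under the shared peaks with the highest AE4 scores are shown as the 250 bases before the start, 5′ to 3′ on the strand of the gene, with each CG dinucleotide in capitals. They show how far the CpG content of such sites ranged. All 5 lie on the minus strand, at chr8:111732137-111732386 (Bcar1), chr8:125492834-125493083 (Sipa1l2), chr8:111081709-111081958 (Clec18a), chr4:133874732-133874981 (Rps6ka1) and chr4:152136326-152136575 (Espn).
Bcar1: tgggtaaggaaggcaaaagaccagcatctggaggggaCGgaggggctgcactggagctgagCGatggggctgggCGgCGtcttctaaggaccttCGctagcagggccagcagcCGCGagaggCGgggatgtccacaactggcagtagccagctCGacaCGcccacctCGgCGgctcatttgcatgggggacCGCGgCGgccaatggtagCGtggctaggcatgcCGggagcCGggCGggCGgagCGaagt
Sipa1l2: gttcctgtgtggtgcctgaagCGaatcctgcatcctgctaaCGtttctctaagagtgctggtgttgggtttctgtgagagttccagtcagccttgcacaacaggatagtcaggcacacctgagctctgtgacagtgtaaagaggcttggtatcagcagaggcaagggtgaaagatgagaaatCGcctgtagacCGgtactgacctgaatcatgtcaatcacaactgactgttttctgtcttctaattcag
Clec18a: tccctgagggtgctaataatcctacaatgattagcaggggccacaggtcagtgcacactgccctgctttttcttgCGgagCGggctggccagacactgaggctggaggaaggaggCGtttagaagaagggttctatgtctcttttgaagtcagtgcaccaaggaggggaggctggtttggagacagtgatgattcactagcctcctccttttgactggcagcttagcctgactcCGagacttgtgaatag
Rps6ka1: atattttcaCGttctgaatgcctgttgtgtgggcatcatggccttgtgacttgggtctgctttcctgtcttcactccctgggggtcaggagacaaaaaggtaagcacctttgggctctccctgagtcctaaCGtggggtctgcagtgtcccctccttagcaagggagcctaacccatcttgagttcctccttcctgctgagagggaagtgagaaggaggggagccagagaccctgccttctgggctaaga
Espn: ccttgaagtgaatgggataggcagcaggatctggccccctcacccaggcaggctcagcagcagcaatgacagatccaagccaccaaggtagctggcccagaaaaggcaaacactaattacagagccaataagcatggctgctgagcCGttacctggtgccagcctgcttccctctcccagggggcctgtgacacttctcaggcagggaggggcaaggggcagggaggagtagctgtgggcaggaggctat

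Bcar1, which encodes the focal adhesion adaptor Cas, was the one CpG-rich stretch of the 5. It held 21 CpG, and its shared peak had an AE4 score of 147.94 over an H1foo peak with a score of 1173.38. Sipa1l2, of a family of Rap GTPase-activating proteins, held 4 CpG. Its peak scored 132.4 for AE4 and 79.65 for H1foo. Clec18a, a C-type lectin gene, also held 4 CpG and had scores of 124.24 and 202.3. Rps6ka1 encodes a ribosomal S6 kinase downstream of ERK, held 2 CpG and had scores of 122.41 and 746.76. Espn encodes the actin-bundling protein espin, held 1 CpG and had scores of 118.0 and 201.97. Over all 79 windows under shared peaks the median GC content was 56.0% and the median number of CpG was 5 in 300 bases. The 45 windows under AE4 peaks with no H1foo peak had medians of 52.3% and 4, the 341 under H1foo peaks alone 54.7% and 6, and the 2685 with no peak 48.3% and 4. The observed-to-expected CpG ratio had a median of 0.227 under shared peaks, 0.268 at internal start sites with no peak and 0.389 over all 31396 start sites on autosomes. Internal start sites under shared peaks were therefore rich in G and C without being rich in CpG. The GC box GGGCGG, searched on both strands, occurred in 20.3% of windows under shared peaks, 4.44% under AE4-only peaks, 27.3% under H1foo-only peaks, 19.4% with no peak and 36.0% of all start site windows. Only 75 of the 7021 shared peaks, 1.07%, touched an internal start site window, against 0.573% of AE4-only and 1.23% of H1foo-only peaks inside genes.

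Of 224 annotated microRNA hairpins this far inside genes, 4 lay under shared peaks, 2 under AE4-only peaks and 16 under H1foo-only peaks. The 3 hairpins that lay wholly inside a shared peak are shown as their mature microRNAs, with the seed (bases 2 to 8, the part that pairs with target transcripts) in capitals.
mmu-miR-8107: uGGAAACUaguggcugggaca
mmu-miR-6933-5p: uGGCGGCAgucaggauaccugu
mmu-miR-6933-3p: aGGUGUUUccucugccguca
mmu-miR-6391: uGAGGCACgggaggacaaugu

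No seed was shared among these. Mir8107 lies in Nbeal2 on the minus strand at chr9:110635999-110636115, under a peak with an AE4 score of 94.08 and an H1foo score of 116.03. Mir6933 lies in Pgs1 on the plus strand at chr11:118002270-118002350, under a peak with scores of 107.66 and 281.13. Mir6391 lies in Abcc4 on the minus strand at chr14:118592369-118592472, under a peak with scores of 55.76 and 95.4. Nbeal2 is needed for platelet granules, Pgs1 makes the cardiolipin precursor and Abcc4 is an efflux transporter. The fourth hairpin, Mir1968 in Grtp1, was only partly covered.

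The shared peaks were wider than unshared ones and their 2 sides coincided closely. Their AE4 width ranged from 175 to 4775 bp with a median of 523 bp, against 419 bp for AE4-only peaks inside genes. For the highest-scoring H1foo peak that each overlapped, counted once per shared AE4 peak, the median was 699 bp. H1foo-only peaks inside genes had 511 bp. The overlap had a median of 455 bp, which was 96.1% of the AE4 peak, and the centres of the pair lay a median of 107 bp apart. A single H1foo peak was involved for 6725 shared peaks, 2 for 291 and 3 for 5. An AE4 peak lay wholly within an H1foo peak in 2816 cases, 40.1%, and held a whole H1foo peak in 585, 8.33%. Conversely, 399 of the 6880 distinct H1foo partners covered more than 1 shared AE4 peak. Partners at least 2000 bp wide numbered 247, or 3.59% of partners, against 55 or 0.245% of the 22462 H1foo-only peaks inside genes. Wide H1foo peaks were thus more frequent among partners than among H1foo peaks that met no AE4 peak. A wider peak is more likely to share 1 bp with another, so the rule itself favours wide peaks in both lists. How much of these differences in width comes from the rule was not tested.

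The scores are the authors' own value for each peak, with an unnamed scale and a lowest value of 50 in both lists. They rank peaks within a list only. Shared peaks had a median AE4 score of 71.3, against 59.5 for the 7673 AE4 peaks at the same depth in genes that overlapped no H1foo peak. The highest-scoring H1foo partner, counted once per shared peak, had a median H1foo score of 97.0, against 67.1 for H1foo-only peaks inside genes. Across the 6725 shared peaks with 1 partner the AE4 and H1foo scores had a Spearman's rho of 0.28, which was 0.38 on chromosome 8 (n = 1607) and 0.22 elsewhere (n = 5118). These points share their regions and their libraries, so the coefficient is a description. It covers only overlapping peaks that were called in both lists. Among those, a high score for one antibody said little about the score for the other.

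AE4 peaks deep inside genes met H1foo less often than those near gene boundaries. Of the AE4 peaks within 2 kb of a boundary 68.3% met an H1foo peak, and the shares were 62.5% inside genes at 2 to 10 kb and 47.8% at more than 10 kb inside genes (interval 47.0% to 48.6%). It was 47.8% as well at 2 to 10 kb outside genes and 35.6% at more than 10 kb outside genes. The peaks deep inside genes thus stood between the boundaries and the sequence between genes. From the side of H1foo the places differed less, with 23.4% of the peaks deep inside genes overlapping an AE4 peak, 23.6% at boundaries, 29.7% at 2 to 10 kb inside genes and 19.4% far outside genes. The AE4 peaks at boundaries, deep inside genes and far outside genes kept this order at each level of score. When all autosomal AE4 peaks were divided into quartiles of score, the share deep inside genes was 32.5%, 39.0%, 49.0% and 72.7% from the lowest quartile to the highest. At boundaries it was 50.5%, 58.0%, 71.2% and 86.2%, and far outside genes 22.9%, 27.4%, 39.0% and 63.6%. Deep inside genes and at 2 to 10 kb outside genes, where the shares were 33.4%, 37.6%, 49.9% and 73.1%, neither place was higher throughout. For H1foo peaks the order of boundaries and deep sequence within each quartile of score was the reverse of that for AE4. Over all H1foo peaks these shares were close, at 23.6% and 23.4%. By quartile of H1foo score the shares were 12.4%, 16.0%, 23.8% and 45.8% deep inside genes and 9.90%, 14.1%, 19.4% and 42.6% at boundaries. Without chromosome 8 the shares deep inside genes were 30.8%, 37.1%, 45.8% and 67.5% for AE4 peaks. For H1foo peaks they were 11.4%, 14.5%, 21.7% and 39.9%.

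**Figure D1:**
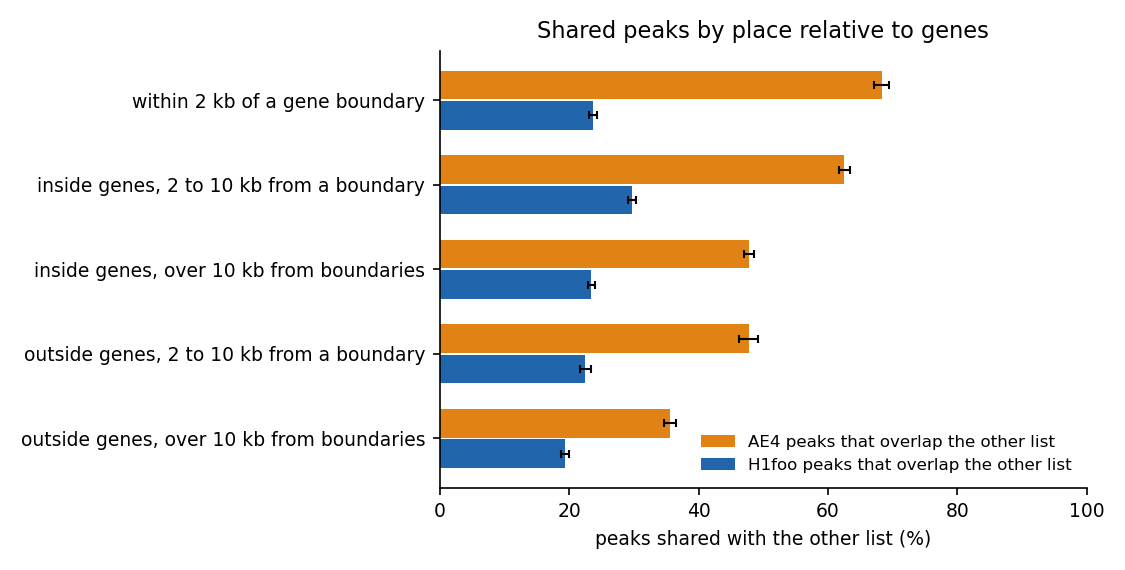
Share of peaks that overlap a peak of the other list, in percent, by place relative to protein-coding genes, for AE4 and H1foo peaks on autosomes, with exact 95% binomial bars for counting error. AE4 peaks more than 10 kb inside genes sit at 47.8%, between 68.3% at boundaries and 35.6% far outside genes, whereas H1foo peaks span 19.4% to 29.7%.

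AE4 peaks deep inside genes that missed H1foo were often near it. Their gap to the nearest H1foo peak had a median of 3.595 kb, with 25.7% within 1 kb and 30.7% more than 10 kb away. Shared peaks had a median of 7 H1foo peak centres within 10 kb, their own partner included, and AE4-only peaks a median of 2. At the 1-bp threshold, shared peaks in Hlcs and Pccb overlapped H1foo by 1 bp and had AE4 scores of 54.82 and 57.71. An AE4 peak just outside the threshold, in Gli2, scored 54.48. At the distance threshold, peaks in Sgk2 and Nynrin lay 10004 and 10005 bp from a boundary, and peaks in Tnpo2 and Tsc22d4, at 10000 and 9998 bp, were not counted. Overlaps under 50 bp were rare, at 85 of the 7021 peaks, or 1.21%.

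The shared peaks were spread unevenly over genes. Of 20665 autosomal protein-coding genes, 9425 had sequence more than 10 kb from every boundary, and 2299 of these, 24.4%, held at least 1 shared peak there. A single shared peak was found in 1114 genes, 48.5% of the hosts, whereas 130 genes held 10 or more and together had 2245 of the peaks. Only 18 peaks lay in more than 1 gene, nested genes included. Host genes had a median length of 65.7 kb, and eligible genes without a shared peak 45.4 kb. A further 1266 genes held peaks of both lists at this depth with none overlapping, and 3685 held no peak of either.

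Gse1, which encodes a protein found with the CoREST histone deacetylase complex, had the most. It spans chr8:120228501-120581383, 352.9 kb, and 162 of its 167 AE4 peaks more than 10 kb from a boundary were shared. These 162 made up 2.31% of all shared peaks and covered 165.3 of the 332.8 kb of Gse1 at this depth. Their median width was 828.5 bp and their median AE4 score 96.8. On the H1foo side, 119 of the 152 peaks in Gse1 overlapped an AE4 peak. The 10 shared peaks with the highest H1foo scores were all in Gse1, yet they lay under only 2 H1foo peaks. One of these, at chr8:120492246-120502132, was 9887 bp wide with a score of 2170.75 and covered 7 shared AE4 peaks whose AE4 scores ran from 75.77 to 291.0. The other, at chr8:120523091-120529123, was 6033 bp wide with a score of 1431.75. The 2 highest AE4 scores in Gse1 lay elsewhere in the gene. The AE4 peak at chr8:120364866-120368018 scored 624.46 and that at chr8:120309687-120312589 scored 438.27.

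**Figure D2:**
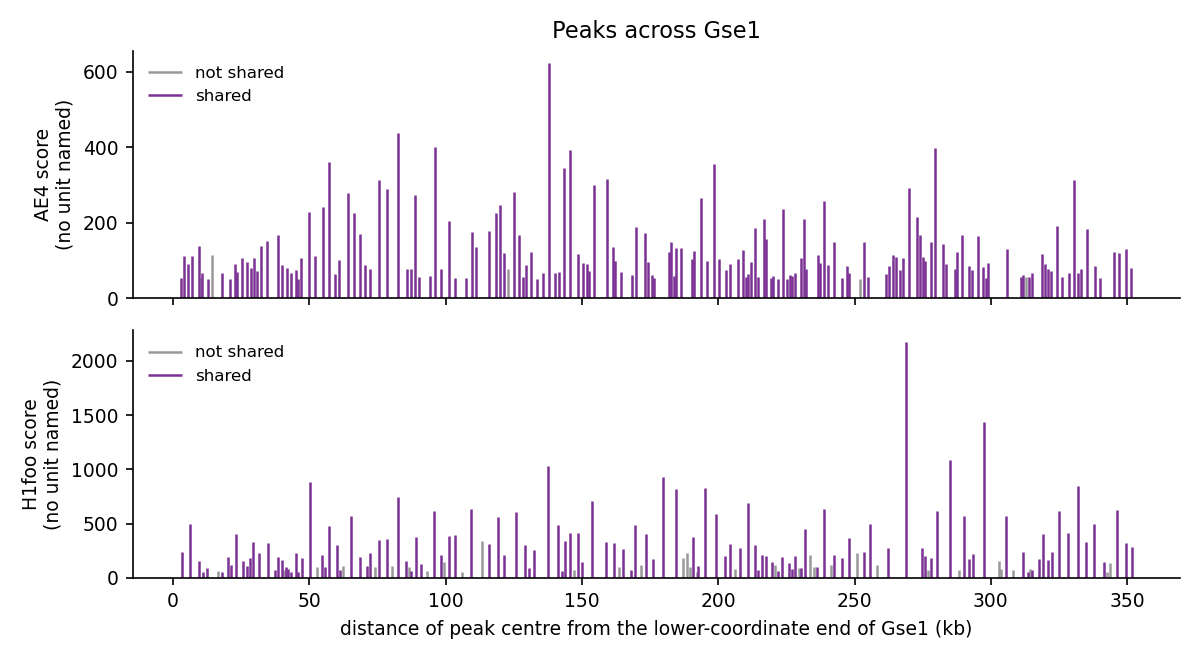
AE4 peaks (upper) and H1foo peaks (lower) along the whole of Gse1, by distance of the peak centre in kb from its lower-coordinate end (x) and the authors' score (y, linear, no unit named), purple for shared and grey for unshared. Shared peaks are spread along most of the gene, peaks within 10 kb of its ends included, and only 5 AE4 peaks are unshared.

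The genes next in number of shared peaks were Zfp423 with 67, Cmip with 63, Cacna1a with 55, Zfp469 with 47, Zfhx3 with 37 and Galnt2 with 33, all on chromosome 8. Zfp423 and Zfhx3 encode transcription factors of neural development, Cacna1a the pore of the P/Q-type calcium channel, and Galnt2 an enzyme that starts mucin-type O-glycans. Mad1l1 on chromosome 5, a spindle checkpoint gene, had 31, Plcg2 on chromosome 8, a phospholipase C of immune cell signalling, 28, and Sipa1l3 on chromosome 7 27. Outside chromosome 8, a listing added after these values were seen, the next were Itpk1 and Msi2 with 26 each, Arhgef10l and Septin9 with 23, Prex1 and Casz1 with 22, Sh3pxd2a with 21 and Epb41l1 with 20. Itpk1 encodes an inositol phosphate kinase and Msi2 an RNA-binding protein of stem and progenitor cells. Casz1 is a zinc finger transcription factor of heart and vessel development, and Septin9 a septin of the cytoskeleton.

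Among genes with at least 50 kb of such sequence, Gse1 was also the densest, with 48.7 shared peaks per 100 kb. Galnt2 followed with 35.0, Cmip with 34.1, Nfix with 31.4, Banp with 31.0 and Lrp1 with 30.2. Nfix, a nuclear factor I transcription factor, had all 24 of its AE4 peaks shared. Lrp1, an endocytic receptor on chromosome 10, had 19 of 20 shared and was the one gene of the 10 densest that lay off chromosome 8. Outside chromosome 8 the next were Kdm4b, a histone lysine demethylase, with 22.5, Itpk1 with 22.4, Capzb, an actin-capping subunit, with 21.5 and Sulf2, a heparan sulphate sulphatase, with 21.0.

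Some genes held many peaks of one list and no shared peak, although peaks of the other list were present in them too. Apbb2 had 12 AE4 peaks at this depth, Pde4d 11, and Lrp5, Ambra1 and Megf11 8 each, none overlapping H1foo. In the same order these genes held 15, 12, 17, 4 and 11 H1foo peaks. On the other side Rbfox3, a neuronal splicing regulator, had 28 H1foo peaks, Dnah10, an axonemal dynein, 20, and Hmcn2, Crtac1 and Syne2 19 each, none overlapping AE4. Their AE4 peaks numbered 7, 2, 2, 3 and 2 in the same order. All these genes of both kinds ranged in length from 101761 bp for Lrp5 to 1301793 bp for Pde4d.

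The highest AE4 score among the shared peaks, 842.55, was at chr4:150513751-150515590 in Rere, which encodes an atrophin-family corepressor. Its H1foo partner scored 846.32, and the peak lay 107296 bp from the nearest boundary. The next AE4 scores were 678.04 in Dlgap2, a postsynaptic scaffold gene, 624.46 in Gse1, 521.77 in Mast3, 508.05 in Nfix and 500.65 in Gm15319. Utp4 followed with 490.31, Unc13a, a synaptic vesicle priming gene, with 475.43, Gse1 again with 438.27 and Cldn14, a claudin of tight junctions, with 433.67. Rere and Cldn14 were the only hosts of these 10 off chromosome 8. The peak in the predicted gene Gm15319 was the widest shared peak, at 4775 bp, and its H1foo score was only 78.34. Whether that gene has near-identical copies that would make the placement of reads uncertain was not checked. Of the 100 shared peaks with the highest AE4 scores, 68 were on chromosome 8.

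Chromosome 8 held 1716 shared peaks, 24.4% of all, with 5.26% of the sequence more than 10 kb inside genes. It had 10.97% of the AE4-only and 8.99% of the H1foo-only peaks there. Per Mb of such sequence, chromosome 8 had 46.5 shared peaks, and the other 18 autosomes had a median of 6.90, with 18.1 on chromosome 11, 14.6 on chromosome 4 and the lowest value, 2.86, on chromosome 13. The ratio of chromosome 8 to the median was 6.74 for shared peaks, 2.43 for AE4-only and 2.02 for H1foo-only peaks. Without Gse1 the ratio for shared peaks was 6.15. An AE4 peak deep inside a gene was shared in 67.1% of cases on chromosome 8 (interval 65.2% to 68.9%) and in 43.7% elsewhere (42.8% to 44.6%). For H1foo peaks the shares were 44.1% and 20.5%. Shared peaks on chromosome 8 also had a higher median AE4 score, 82.2 against 68.6, and a larger median width, 653.5 against 494 bp. Density was uneven along the chromosome, from 1.06 shared peaks per Mb between 50 and 60 Mb to 180.0 per Mb between 120 and 130 Mb. H1foo-only peaks were densest on chromosome 11, at 57.4 per Mb against 54.7 on chromosome 8. Against the median of the other 18 autosomes, all 3 classes of peak were denser on chromosome 8. Whether the number of copies of this chromosome in these cells moved with that was not tested, since peak lists hold no read coverage.

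**Figure D3:**
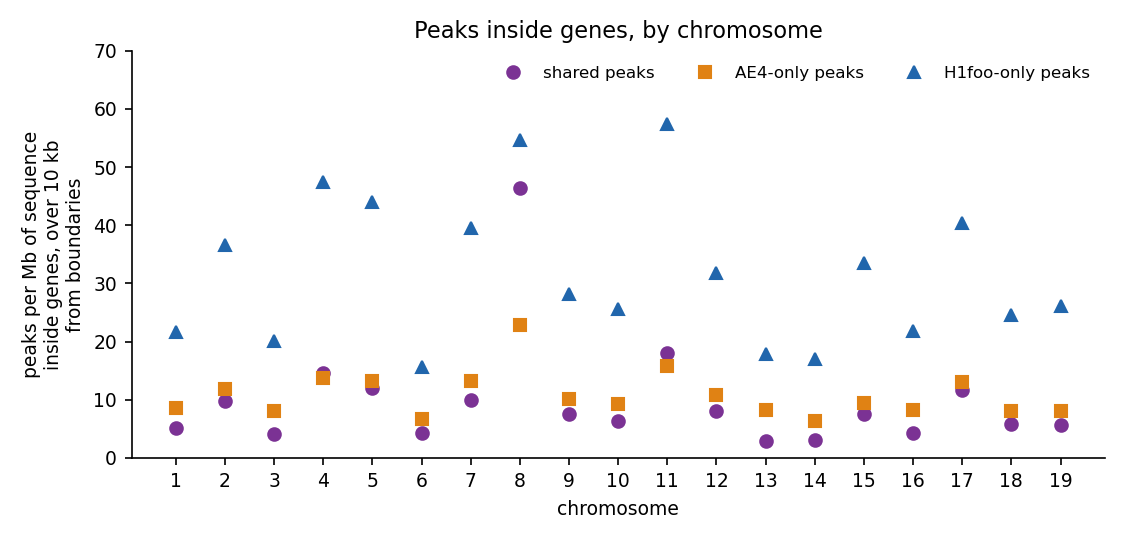
Peaks per Mb of sequence more than 10 kb inside genes on each autosome (points, 3 classes of peak). Shared peaks reach 46.5 per Mb on chromosome 8 against a median of 6.90 on the others, and chromosome 11 follows with 18.1.

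Within genes, shared peaks thinned out with distance from gene boundaries, and so did both unshared classes. From 10 to 20 kb from the nearest boundary there were 20.7 shared peaks per Mb, from 20 to 50 kb 12.3, from 50 to 100 kb 6.88, from 100 to 200 kb 3.08, and beyond 200 kb 0.598. AE4-only peaks went from 17.9 to 2.62 per Mb over the same classes, and H1foo-only peaks from 58.6 to 3.73. The share of AE4 peaks that were shared was 53.7% in the nearest class and 18.6% in the farthest. Without chromosome 8 these shares were 49.8% and 12.5%, and the density of shared peaks went from 16.9 to 0.284 per Mb.

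Surrounding gene density went with the shared peaks in the same way. Where a stretch had 0 to 4 protein-coding genes within 500 kb there were 1.34 shared peaks per Mb, and with 5 to 9 genes 6.52, with 10 to 19 18.6, with 20 to 29 38.2 and with 30 or more 51.7. AE4-only peaks spanned 3.84 to 28.0 per Mb and H1foo-only peaks 7.28 to 111.6. The shared fraction of AE4 peaks was 25.9% in the sparsest class and 64.8% in the densest, or 23.3% and 60.7% without chromosome 8. The median number of genes within 500 kb was 15 for shared peaks, 11 for AE4-only peaks, 13 for H1foo-only peaks and 6 for the sequence itself. The length of the host gene showed the reverse order, from 29.4 shared peaks per Mb in genes under 50 kb to 1.13 in genes over 500 kb. Distance, gene density and gene length move together. Within stretches that had at least 10 genes around them, the density of shared peaks was 31.6 per Mb at 10 to 20 kb, 22.2 at 20 to 50 kb, 17.4 at 50 to 100 kb and 17.3 at 100 to 200 kb. In these stretches AE4-only peaks went from 23.7 to 12.4 per Mb and H1foo-only peaks from 82.6 to 40.9 between the first and the last of these classes. The shared fraction of AE4 peaks was 57.2%, 52.3%, 50.3% and 58.1% from the first class to the last. Where genes were dense, the shared fraction over all autosomes thus fell up to 100 kb from boundaries and was higher again at 100 to 200 kb. Without chromosome 8 the shared densities in the last 2 classes were 13.1 and 6.80 per Mb. The shared fraction then fell throughout, at 53.2%, 48.7%, 44.6% and 38.5% from the first class to the last. Chromosome 8 alone held 114 of the shared peaks at 100 to 200 kb against 65 on all other autosomes.

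**Figure D4:**
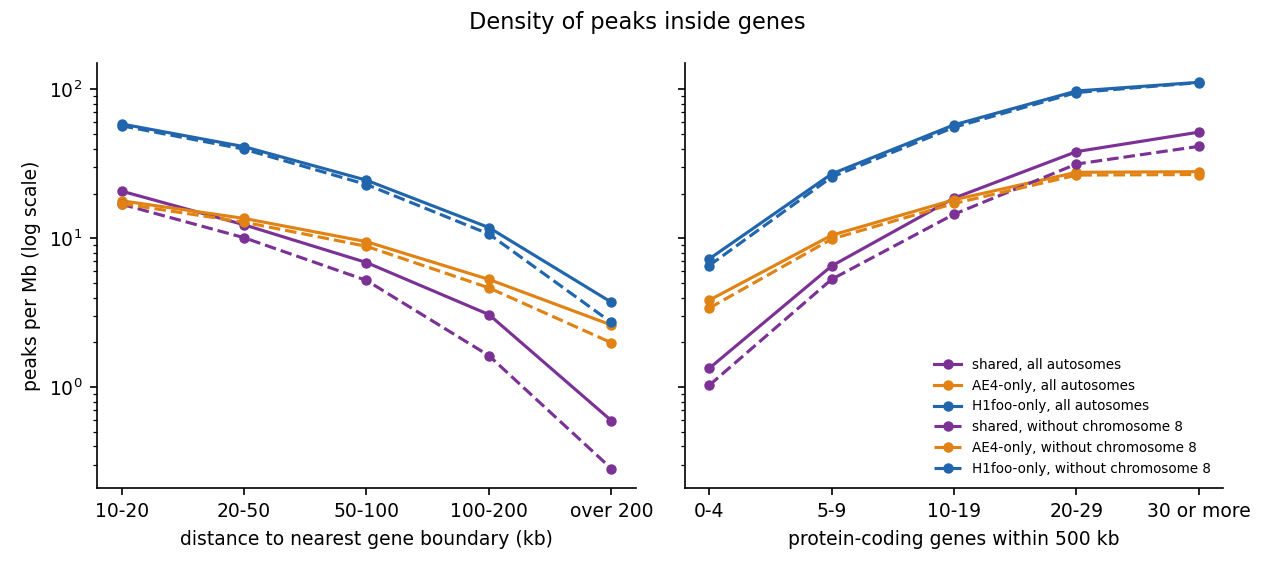
Peaks per Mb (y, log scale) by distance to the nearest protein-coding gene boundary in kb and by number of protein-coding genes within 500 kb, for shared, AE4-only and H1foo-only peaks inside genes, with solid lines for all autosomes and dashed lines without chromosome 8. Over all autosomes shared peaks go from 20.7 to 0.598 per Mb with distance and from 1.34 to 51.7 per Mb with gene density, the widest spans of the 3 classes.

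No end of the gene was strongly preferred. Strand was known for the hosts of 5540 shared peaks, and 47.0% of these lay nearer the 5′ end, against 50.1% of the sequence, 47.2% of AE4-only and 47.5% of H1foo-only peaks. With each gene divided into 5 equal parts from the 5′ end, the parts held 9.91%, 22.4%, 29.8%, 26.1% and 11.9% of the shared peaks, and 14.44%, 23.12%, 25.01%, 23.02% and 14.41% of the sequence. The middle part thus held a larger part of all 3 classes of peak than of the sequence. Exons and introns were not told apart, because the reference spans used here give neither. Overlap with long noncoding RNA genes was 5.10% for shared peaks, 4.52% for AE4-only peaks, 5.83% for H1foo-only peaks and 4.43% for the sequence. Overlap with pseudogenes was 0.798%, 0.573%, 0.556% and 0.329% in the same order.

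Shared peaks came in clusters. Another shared peak lay within 5 kb of 53.5% of them, and the median distance to the nearest was 4.33 kb, whereas AE4-only peaks had another of their kind within 5 kb in 23.9% of cases and a median of 17.5 kb. Without chromosome 8 the shares were 46.1% and 22.7%. Joined at gaps of up to 5 kb, 3889 shared peaks, 55.4%, fell into 1205 clusters of at least 2. Of the 162 clusters with 5 or more, 80 were on chromosome 8 and 19 on chromosome 11. The largest lay in Gse1 at chr8:120238998-120483616, a span of 244.6 kb. It held 120 shared AE4 peaks, 119 H1foo peaks and only 3 AE4-only peaks. Cmip had a cluster of 26 with no AE4-only peak, Nfix one of 24, Piezo1, which encodes a mechanically gated ion channel, one of 23 and Crtc1, a coactivator of CREB, one of 22. Outside chromosome 8, the cluster in Adap1 on chromosome 5 held 14 peaks over 34.27 kb at chr5:139281951-139316220, with no AE4-only peak.

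Gene groups differed in how many shared peaks they held. Over all 9425 eligible genes, 24.4% held a shared peak and there were 9.95 shared peaks per Mb, or 7.93 without chromosome 8. The 23 lists of genes were chosen with earlier results of these data known, and no test was made on any of them.

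The lists of stem cell identity and DNA methylation were short. Of 7 eligible naive pluripotency factors 2, 28.6%, held a shared peak, at 8.92 per Mb. Esrrb, an orphan nuclear receptor of the naive state, had 4 of its 8 AE4 peaks shared, beside 33 H1foo-only peaks. The 4 lay at chr12:86426632-86427525 with an AE4 score of 94.46 and an H1foo score of 303.82, at chr12:86430240-86430603 with 61.83 and 149.45, at chr12:86440805-86441455 with 82.81 and 73.68, and at chr12:86483013-86483951 with 113.84 and 154.23. Tfcp2l1, a factor of the same network, had 1 shared peak with a score of 60.31. Of 11 eligible DNA methylation enzymes 3, 27.3%, held one, at 14.0 per Mb, all of them methyltransferases. The de novo enzyme genes Dnmt3a and Dnmt3b had 4 and 1, with top scores of 111.6 and 53.66, and the maintenance enzyme gene Dnmt1 had 1 with 50.32. None of the 10 eligible oocyte and early embryo genes held a shared peak, against 24.4% of all eligible genes. They had only 0.387 Mb of sequence at this depth, with 4 AE4-only and 7 H1foo-only peaks, or 10.3 and 18.1 per Mb. With so few peaks, the lack of a shared one says little.

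Genes of chromatin regulators differed by group. Of 39 eligible chromatin remodeller genes 15, 38.5%, held a shared peak, at 21.9 per Mb and 18.4 without chromosome 8. Mta1, a subunit of the NuRD complex, had 10 shared peaks and no AE4-only peak in 18957 bp of such sequence, Mta3 had 9 and Gatad2a 8. Histone lysine methylases and demethylases had 14 of 45 with 15.1 per Mb, led by Kdm4b with 13 shared peaks, the methyltransferase gene Smyd3 with 7 and Kdm2b, which links Polycomb to unmethylated CpG, with 6. Polycomb genes had 4 of 21, or 19.05%, against 24.4% of all eligible genes, a difference that says little in so short a list. Their density was 13.4 per Mb, against 9.95 over all eligible genes. Kdm2b had 6 of the 12 shared peaks in Polycomb genes and Cbx7, a subunit that reads methylated histone H3, had 4.

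Signalling genes varied by pathway. Of 17 eligible Notch pathway genes 9 held a shared peak, 52.9%, at 15.6 per Mb. Dtx2 and Dtx1, which encode Deltex ubiquitin ligases, had 6 and 4, and the receptor gene Notch3 had 3. FGF and ERK pathway genes had 16 of 41 with 10.8 per Mb, or 6.62 without chromosome 8, where the adaptor gene Gab1 had 8 and the Ras GAP gene Rasa3 7. Nodal, BMP and TGF-beta genes had 11 of 34 with 12.8 per Mb, led by the corepressor gene Ski with 6. Wnt pathway genes had 14 of 49 with 8.51 per Mb, led by the transcription factor gene Tcf7 with 5.

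Structural and motor gene families also differed. Myosins had 14 of 23 genes with a shared peak, 60.9%, the highest share of the 23 lists. Their density was 14.4 per Mb, or 11.1 without chromosome 8. A share of genes with at least 1 peak also depends on the sequence per gene, here 3.33 Mb over the 23. Myo9b had 17, and Myo18a had 11 with no AE4-only peak. Kinesins had 10 of 31 with 11.1 per Mb, collagens 10 of 38 with 6.82, and semaphorins, plexins and neuropilins 7 of 23 with 5.09. Solute carriers had 55 of 249 with 11.2 per Mb and 8.23 without chromosome 8. Nuclear receptors had 8 of 35 with 4.88, led by Ppard with 10.

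Neural receptor and adhesion genes were sparse in peaks of every class. Synaptic adhesion genes had 1.56 shared, 2.63 AE4-only and 5.48 H1foo-only peaks per Mb over 39.2 Mb, against 9.95, 10.9 and 31.9 over all eligible genes. Counted by genes, 12 of 43, 27.9%, held at least 1 shared peak, near the 24.4% of all eligible genes. Such a share also depends on the sequence per gene, here 39.2 Mb over 43 genes against 707.9 Mb over all 9425. In this list Adgrl1, a latrophilin, had 11 shared peaks and no AE4-only peak, and Nrxn2, a neurexin, had 11 of 12 AE4 peaks shared. Glutamate and GABA receptor genes had 4 of 37 with 2.08 shared, 3.44 AE4-only and 8.96 H1foo-only peaks per Mb, and 16 of their 23 shared peaks were in Grik3. Potassium channel genes had 18 of 60, also above the background, with 3.69 per Mb. Voltage-gated calcium and sodium channels had 14.7 per Mb, yet 55 of their 78 shared peaks were in Cacna1a and the value without chromosome 8 was 4.56. Imprinted genes had 2 of 21, at 2.26 per Mb, with 4 peaks in Kcnq1 and 1 in Copg2. Zfp zinc finger genes had the highest density of the lists, 28.7 per Mb, but 32 of 168 genes with a shared peak, 19.05%, which is below the background. Zfp423 and Zfp469 held 67 and 47 of their 197 shared peaks, and without chromosome 8 the density was 11.9.

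**Figure D5:**
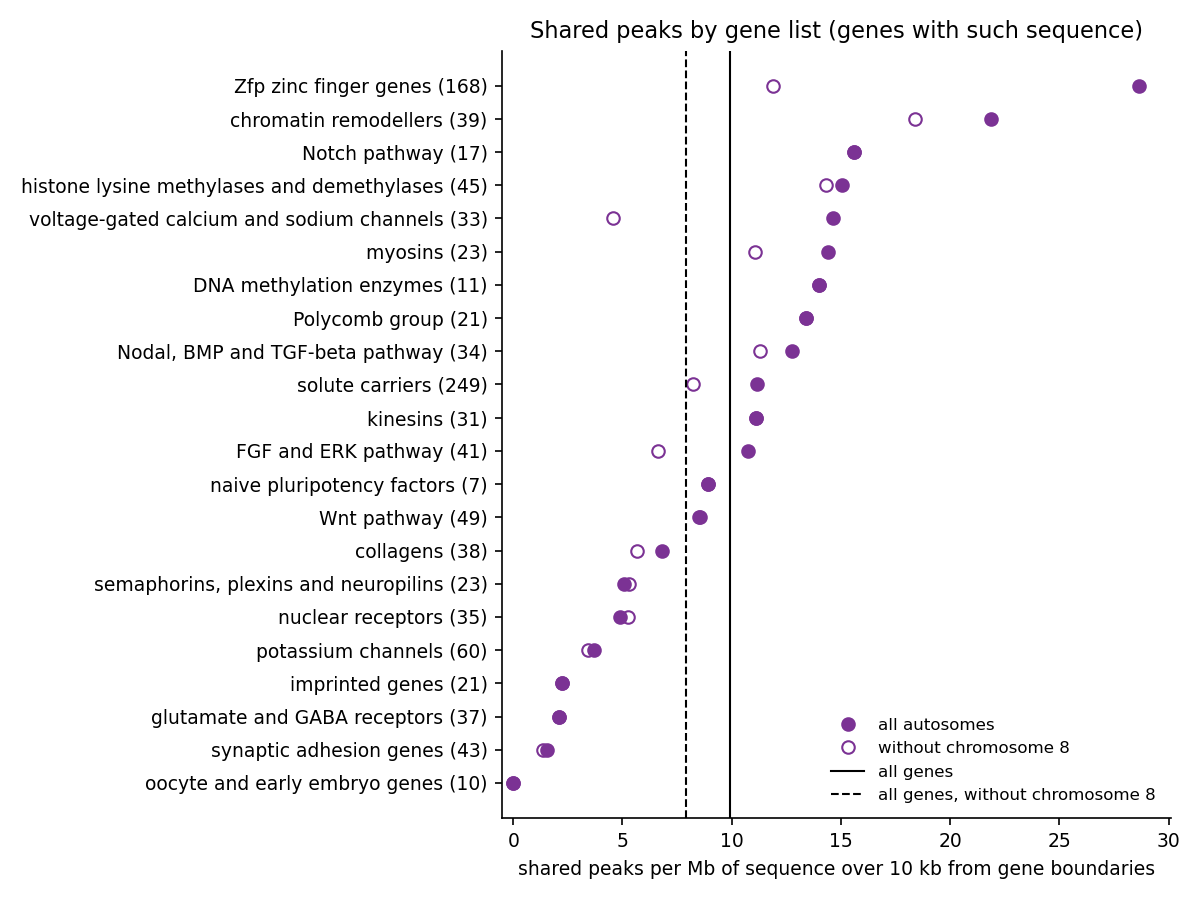
Shared peaks per Mb of sequence more than 10 kb inside genes for 22 of the gene lists, with all autosomes and without chromosome 8, and the value over all eligible genes, 9.95 per Mb, for reference. Zfp genes move from 28.7 to 11.9 per Mb and calcium and sodium channels from 14.7 to 4.56 once chromosome 8 is left out, and chromatin remodellers from 21.9 to 18.4.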

How the data were processed

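Reads from the 4 libraries had been aligned with Bowtie 1.1.2 to mm10, per the submitters' processing notes, and MACS had called the peaks, per the file headers. The authors deposited 1 peak list per antibody with a score per peak, whose scale is not named. The score ranked peaks within a list only. The way each pair of libraries was joined into 1 list, and any input control, were not given in the sources used here. Gene spans, start sites and microRNAs came from RefSeq (GRCm38.p6). Peaks were placed by their centre, counted from 1. Densities are peaks per Mb of sequence inside genes and more than 10 kb from boundaries, sampled once per kb where distance or gene density was classed. No test was made, because the lists hold no value per library.

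Genes were named by rule: hosts of the 10 highest AE4 and H1foo scores, the 10 with the most shared peaks in number and per 100 kb, the 5 with most peaks of either list and none shared, up to 3 per gene list, and those nearest the thresholds. Peaks in chromosome 8 genes filled most places, so rankings without it were added after the values were seen. The peaks, gene lists and rules were chosen with earlier results of these data known. Alternatives changed the overlap, score, distance, boundaries and chromosomes. Scripts ran on Python 3.11.15, NumPy 2.4.6, pandas 2.3.3, SciPy 1.17.1 and matplotlib 3.10.9, and the overlap and distance code was checked on simulated peaks. Results for 1 gene list and a few other items are not reported here.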

Additional observations from a re-analysis of the deposited data

How the results depend on the processing

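Across 7 alternatives, 19 of 47 recomputed values stayed within the interval of the reported value, or for counts within 1.5 times of it, and 28 moved. No direction was at stake in these values. The number of shared peaks inside genes was 3312 with both lists limited to scores at or above their median, 10539 at more than 5 kb from boundaries and 3986 at more than 20 kb, and the genes holding one numbered 1318, 3609 and 1239. The share of AE4 peaks deep inside genes that overlapped H1foo was 44.5% when 50% of the AE4 peak had to be covered, 32.4% with 200 bp around each centre, 46.1% with the score limit, 51.2% at 5 kb, 44.1% at 20 kb, 46.8% with the boundaries of all annotated genes and 43.7% without chromosome 8. The share of H1foo peaks that overlapped AE4 was 22.0% with 50% coverage, 16.3% with 200 bp, 25.03% at 5 kb, 21.8% at 20 kb and 20.5% without chromosome 8. Chromosome 8 held 21.3% of the shared peaks with 200 bp, 32.4% with the score limit, 23.3% at 5 kb and 26.1% at 20 kb. The cause of these shifts was not tested, apart from what each alternative adds or removes. No paired analysis was possible because the lists hold no value per library, and for the same reason no library could be left out. Library depth is unknown, so a gene without a peak is only one where none was reported.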

Other observations

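Some shared peaks had scores of very different rank for the antibodies. In Gse1 the AE4 peak at chr8:120526214-120526882, 669 bp wide, had a score of only 53.35, although it lay inside the H1foo peak that scored 1431.75. That H1foo peak was 6033 bp wide and also met AE4 peaks with scores of 165.59, 94.05 and 83.23. Banp and Piezo1, also on chromosome 8, each held a low-scoring AE4 peak inside a wide H1foo peak, with AE4 scores of 63.48 and 63.89. The H1foo peaks scored 679.75 and 816.1 and were 3809 and 3593 bp wide. The reverse was found in Ccdc88c, where an AE4 score of 216.74 met an H1foo score of 52.3, and in Intu, a planar polarity gene of cilia, where 221.69 met 53.91. In Zzef1 an AE4 score of 262.15 met an H1foo score of 75.72, and in Foxn3, a forkhead factor, 270.73 met 79.08. The peak in Tusc3 at chr8:39155665-39156047 was 383 bp wide, below the median width of the shared peaks, and had an AE4 score of 400.97. These peaks were chosen after their values were seen.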
